A study of Mus musculus with 6 samples.

Results

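The promoters described here belong to the genes that encode the protein subunits of the cytosolic ribosome. They were taken as every protein-coding gene of the GENCODE annotation for GRCm38 whose symbol is Rpl or Rps followed by a digit, or Rplp0, Rplp1, Rplp2 or Rpsa, with -ps symbols and the Rps6k kinases left out. This gave 86 genes of 21938 protein-coding genes. Of these, 46 encode canonical proteins of the large subunit and 31 canonical proteins of the small subunit. The other 9 carry such a symbol without being canonical subunits: the paralogs Rpl3l, Rpl7l1, Rpl10l, Rpl22l1, Rpl36al, Rpl39l, Rps27l and Rps27rt, and Rps19bp1, whose product binds Rps19. Each promoter was the window from 1000 bp before to 1000 bp after the 5′-most annotated start.

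Accessibility was measured by single-cell ATAC-seq, in which the Tn5 transposase cuts open DNA and inserts adapters, so that each fragment has a cut site at either end. Cells came from adult Krt5-CreER; Rosa26-LSL-YFP mice. Cre is driven from the promoter of Krt5, a keratin of basal cells, and marks horizontal basal cells, the reserve stem cells of the olfactory epithelium, together with any progeny they have made. Cells of the dorsal epithelium that carried YFP and excluded propidium iodide were sorted. There were 3 libraries from uninjured mice and 3 from mice taken 24 h after an intraperitoneal injection of methimazole, a drug that destroys the mature cells of this epithelium. In both groups the mice were 8 weeks old for replicate 1, 6 weeks for replicate 2 and 6 to 7 weeks for replicate 3. The labels call the libraries biological replicates and do not say how many animals each one holds.

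Ribosomal proteins are needed in near-equal numbers, and their genes are among the most highly transcribed of growing cells. Their mammalian promoters are compact, usually lack a TATA box, and often hold binding letters for ETS-family factors and YY1. Transcription commonly starts at a cytosine within a run of pyrimidines, the 5′ terminal oligopyrimidine motif, through which the mTOR pathway controls translation of these mRNAs. In adult epithelium reserve stem cells divide little, and injury is known to bring them into the cell cycle.

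Cells were taken as barcodes with at least 2000 fragments. The uninjured libraries held 454, 889 and 629 such barcodes and the injured ones 1338, 420 and 746, in the order of their replicate numbers. The libraries had 14825320 to 44875242 cut sites each. Among the 4476 cells, 53 barcode sequences recurred between libraries, 34 of them between uninjured replicate 3 and injured replicate 3; leaving out the cells that carry them kept 4367 cells and gave no call among the ribosomal protein genes, and its effect on other gene lists is given with them. The summed level of 8 horizontal basal cell markers was 702 to 882 CPM in the uninjured and 628 to 804 in the injured libraries. CPM of markers are cut sites scaled to each library's total alone, without edgeR's TMM scaling. The summed level of 6 sustentacular cell markers was 105 to 114 CPM in the uninjured and 59.1 to 65.3 CPM in the injured libraries, with 3 of the 6 lower without overlap and 0 higher. The summed level of 4 Bowman gland markers was 100.04 to 110 against 77.7 to 86.3 CPM, with 2 of the 4 lower without overlap and 1 higher. The summed level of 5 immune markers overlapped, at 38.7 to 49.5 against 48.6 to 56.3 CPM, with 2 of the 5 higher without overlap and 0 lower. Of the 8 horizontal basal cell markers 2 were lower without overlap and 0 higher, and no marker was at 0 in any library. Injured replicate 3 had the highest sums of olfactory sensory neuron markers (260 CPM against 121 to 217 in the other 5 libraries) and of globose basal and neuronal precursor markers (126 against 68.9 to 109.8 CPM). Microvillar markers overlapped, at 105 to 118 against 115 to 118 CPM. The share of all genes whose groups were apart over such gene bodies was not computed. In promoter windows scaled to total cut sites, 38.5% of all promoters were lower after injury and 2.43% higher (edgeR adjusted p under 0.05). In libraries summed over cells, a change in the mix of cells and a change within cells cannot be told apart, and the part of these shifts in the results below was not tested.

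RefSeq promoter sequences of GRCm38.p6 were matched for 62 of the 86 genes. They show letters that were more frequent in the set than in other promoters, though most of the 62 lack each of them, and 7 are printed from 120 bases before to 20 bases after the RefSeq start. Rps6, Rps19, Rps18, Rpl27a and Rpl19 are the canonical genes the later comparisons turn on, Rplp0 has the highest short-fragment ratio, and Rpl3l is a muscle paralog whose window was almost closed. Capitals mark the ETS letters CCGGAAG, the CGCG element (10 letters read the same on both strands), and a run of at least 8 pyrimidines that begins at a C within 10 bases of the start; Rplp0 and Rpl3l have none of them.
Rps6: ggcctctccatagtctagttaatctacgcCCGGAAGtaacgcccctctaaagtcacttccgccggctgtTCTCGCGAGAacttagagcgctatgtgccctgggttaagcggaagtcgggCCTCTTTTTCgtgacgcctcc
Rps19: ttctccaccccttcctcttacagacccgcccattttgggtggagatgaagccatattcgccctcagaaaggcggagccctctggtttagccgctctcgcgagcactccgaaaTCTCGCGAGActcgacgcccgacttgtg
Rps18: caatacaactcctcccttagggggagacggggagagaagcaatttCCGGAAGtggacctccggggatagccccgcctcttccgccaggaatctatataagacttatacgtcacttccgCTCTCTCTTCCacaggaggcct
Rpl27a: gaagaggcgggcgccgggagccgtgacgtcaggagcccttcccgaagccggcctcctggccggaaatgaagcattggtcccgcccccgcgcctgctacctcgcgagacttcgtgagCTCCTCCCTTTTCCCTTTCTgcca
Rpl19: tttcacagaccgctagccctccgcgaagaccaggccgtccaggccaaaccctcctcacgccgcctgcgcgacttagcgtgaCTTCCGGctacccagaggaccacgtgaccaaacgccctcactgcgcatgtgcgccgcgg
Rplp0: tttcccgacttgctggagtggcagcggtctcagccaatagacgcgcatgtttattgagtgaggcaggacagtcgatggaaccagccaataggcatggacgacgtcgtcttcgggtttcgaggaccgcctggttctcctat
Rpl3l: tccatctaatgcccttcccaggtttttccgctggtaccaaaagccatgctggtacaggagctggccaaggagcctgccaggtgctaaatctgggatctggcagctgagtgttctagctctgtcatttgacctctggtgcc
On the plus strand lie Rps19 (chr7:24884472-24884611), Rpl27a (chr7:109519075-109519214), Rpl19 (chr11:98026590-98026729), Rplp0 (chr5:115559347-115559486) and Rpl3l (chr17:24727706-24727845). On the minus strand lie Rps6 (chr4:86857348-86857487) and Rps18 (chr17:33955646-33955785). The RefSeq start lies 221 bp downstream of the 5′-most annotated start at Rps19, 48 bp at Rpl27a, 45 bp at Rps6 and 336 bp at Rps18.

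In the 300 bases from RefSeq, searched on both strands, the ETS letters CCGGAAG stood in 37.1% of the 62 promoters and in 13.3% of 14278 protein-coding promoters. The CGCG element, a palindrome found in housekeeping promoters, stood in 8.06% against 0.812%, which is 5 genes, all canonical. The YY1 letters AAGATGGC stood in 8.06% against 3.50%. A pyrimidine run of at least 8 beginning at a C near the start was present in 29.0% against 8.53%, and the annotated first base was C in 32.3% against 14.5%. Of the other letters searched, the SP/KLF box GGGCGG stood in 59.7% against 51.8%, the NRF1 motif in 8.06% against 7.57%, the E-box CACGTG in 8.06% against 8.65%, the TATA box TATAAA in 8.06% against 11.2%, and the NFY letters CCAAT in 30.6% against 38.9%. The median GC content was 57.0% against 58.0%, with a median of 21 CpG against 16 per promoter. These matches describe letters and not bound sites. The 21 canonical promoters with ETS letters had a median level of 24.5 CPM and the 32 without them 20.2 CPM. The 17 with a pyrimidine run had 22.4 CPM and the 36 without one 19.0 CPM, and the ranges overlapped in both comparisons.

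Ribosomal protein promoters were open in all 6 libraries, and above most other promoters. All windows have the same length, so their levels, in CPM after TMM scaling, need no correction for length between genes. How reads that map to several places were handled is not stated, and its part in differences between genes was not tested. The 77 canonical genes had a median of 20.8 CPM, against 8.42 CPM over all protein-coding promoters, and their median stood at the percentile 72.4. Of the 77, 71 lay above the median promoter and 11 above the 90th percentile. The large-subunit median was 19.0 CPM and the small-subunit median 22.2 CPM. The range was nonetheless wide, from 0.392 CPM at Rpl17 to 61.5 CPM at Rps19.

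Rps19, a small-subunit protein whose loss causes Diamond-Blackfan anaemia, had the most open window. It stood at 71.9, 66.6 and 61.7 CPM in uninjured replicates 1 to 3 and at 60.4, 50.4 and 57.7 CPM in injured replicates 1 to 3, above 99.3% of all windows. Rpl37, of the large subunit, followed at a mean of 48.2 CPM, with 48.7, 48.6 and 49.3 CPM in the uninjured and 51.8, 45.4 and 45.7 CPM in the injured libraries. Rpl7, also of the large subunit, stood at 45.8 CPM, with 47.6, 44.8 and 46.2 against 43.1, 51.1 and 42.2 CPM. For the last 2 genes the order changes between libraries, and their groups overlap. In the plot of level by library, the canonical genes form an unbroken slope below them down to about the median promoter.

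**Figure D1:**
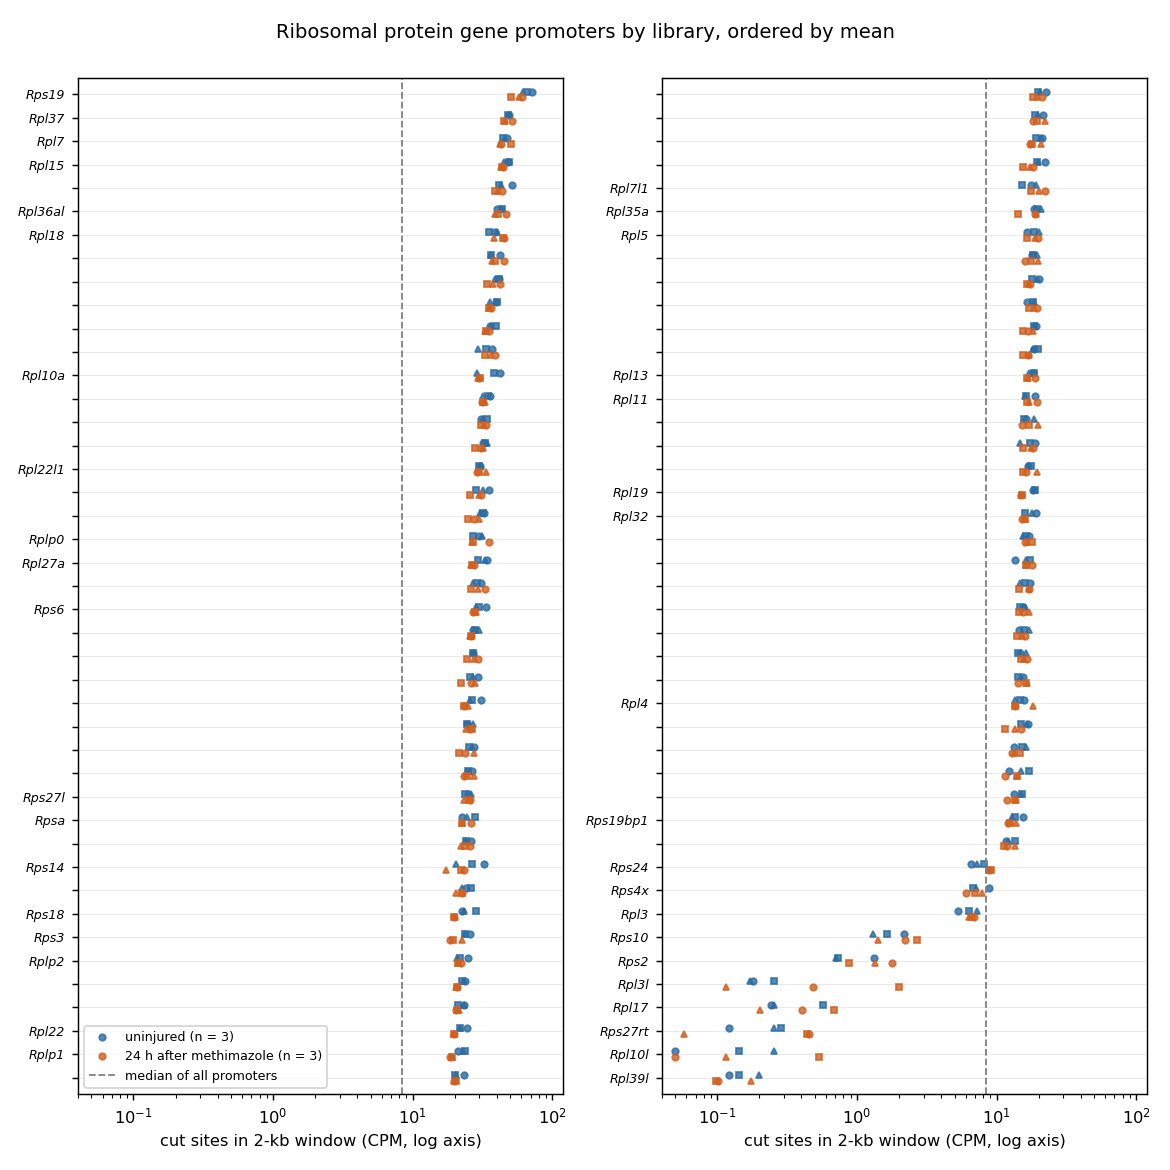
Cut sites in the 2-kb window of each of the 86 genes, in CPM on a log axis, with 1 marker per library (circle, square and triangle for replicates 1, 2 and 3) and genes ordered by their mean over 6 libraries; only genes the text names are labelled. Rps19 leads at 61.5 CPM and 76 of the 86 genes lie right of the dashed median of all promoters at 8.42 CPM; the 2 libraries in which Rpl10l had no cut site are drawn at the left edge.

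The paralogs fell into an open and a closed group. Rpl22l1, a paralog that shares functions with Rpl22, stood at 30.3, 29.7 and 30.9 CPM in the uninjured and 28.8, 29.9 and 33.6 CPM in the injured libraries. Rpl36al had a mean of 42.4 CPM, Rps27l, a target of p53, stood at 23.3 to 26.1 CPM over the 6 libraries, and Rpl7l1, which acts in assembly of the large subunit, at 15.2 to 22.3 CPM. Rps19bp1, which is no paralog, stood at 12.2 to 15.5 CPM. The tissue-restricted copies were close to empty. Rpl10l and Rpl39l, known from testis, had 29 and 26 cut sites over all 6 libraries, and the retrogene Rps27rt had 50. Rpl3l, known from heart and skeletal muscle, had 3, 9 and 6 cut sites in the uninjured and 19, 41 and 4 in the injured libraries; injured replicate 2 alone gave 41 of the 82. These 4 genes did not pass the filter on low counts and were not tested, so that 82 of the 86 were.

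At some canonical genes with low values, most cut sites lay at another annotated start. At 5 genes that annotated start had over 1.5 times as many cut sites over the 6 libraries. Rpl17 had 4, 20 and 9 cut sites in the uninjured and 16, 14 and 7 in the injured libraries at its 5′-most start. At a start 1919 bp downstream it had 322, 652 and 681 against 777, 384 and 665, a mean of 19.2 CPM without TMM scaling. Rps2 had 208 cut sites in all at its 5′-most start and 5119 at a start 1947 bp downstream, Rps10 had 331 and 3207 at 1425 bp, Rpl3 1200 and 3737 at 8531 bp, and Rps24 1492 and 3512 at 4024 bp. At those starts the 5 genes had means of 17.7 to 28.6 CPM, also without TMM scaling, inside the range of the other canonical genes. Rps4x, which is X-linked, was the remaining low canonical gene at 7.27 CPM, and no other start raised it by as much. In addition, 16 of the 86 windows hold the start of another protein-coding gene, such as Nkiras1 at Rpl15, and cut sites there cannot be assigned to one of the genes.

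Fragment length tells apart DNA cut between nucleosomes from DNA wrapped on one. Fragments under 100 bp are called short here, and those of 180 bp to under 248 bp mononucleosomal. Over the 86 windows the ratio of short to mononucleosomal cut sites was 2.24, 2.49 and 2.14 in the uninjured and 1.70, 2.41 and 2.25 in the injured libraries, and the groups overlapped. Over all other promoters it was 2.63, 2.85 and 2.49 against 1.92, 2.65 and 2.56. The ribosomal protein promoters thus had 0.8497, 0.872 and 0.858 times the ratio of other promoters in the uninjured libraries and 0.889, 0.911 and 0.880 times in the injured ones. The value was below 1 in 6 of 6 libraries, and closer to 1 in each injured library than in any uninjured one, by 0.034 between the group means (SD 0.0111 and 0.0157, n = 3 each). The other promoters were not matched for level. Taken gene by gene, as tested below, the median log2 change of the ratio was 0.01 at 80 genes and 0.01 over all promoters. Mononucleosomal fragments gave 15.8 to 19.0% of all cut sites in the uninjured and 18.5 to 20.7% in the injured libraries, and the part of this in the ratio was not tested.

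Among the 79 genes with at least 200 cut sites of each length, the ratio over the 6 libraries had a median of 2.14. It was highest at Rplp0, the scaffold of the ribosomal stalk, with 2484 short and 570 mononucleosomal cut sites, a ratio of 4.36. By library it was 3.00, 5.08 and 4.19 in the uninjured and 4.11, 5.86 and 4.61 in the injured mice, so the groups overlap. Rps19bp1 followed at 3.42. The ratio was lowest at Rpl4, of the large subunit (1.03), and was also low at Rpl35a of the same subunit (1.21). For Rpl4 it was 1.14, 1.17 and 0.864 in the uninjured and 0.626, 1.59 and 1.17 in the injured libraries.

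The average profile was summarised by the peak of short cut sites and that of mononucleosomal midpoints within 400 bp downstream of the start. Depletion at the centre and the spacing of nucleosomes were not measured. Short cut sites peaked 55 to 77 bp before the 5′-most start at the 86 genes, and 44 bp before it over all promoters in every library. Midpoints of mononucleosomal fragments peaked downstream of the start at 167, 168 and 169 bp in the uninjured and at 174, 162 and 173 bp in the injured libraries. The corresponding peak over all promoters lay at 129, 131 and 131 bp and at 134, 137 and 132 bp. The first downstream nucleosome of ribosomal protein genes was therefore farther from the 5′-most start in 6 of 6 libraries, and its place overlapped between the groups. The RefSeq start lay a median of 14.5 bp downstream of the 5′-most one, and over 100 bp downstream at 11 of the 62 matched genes; the part of this in the distance was not tested.

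**Figure D2:**
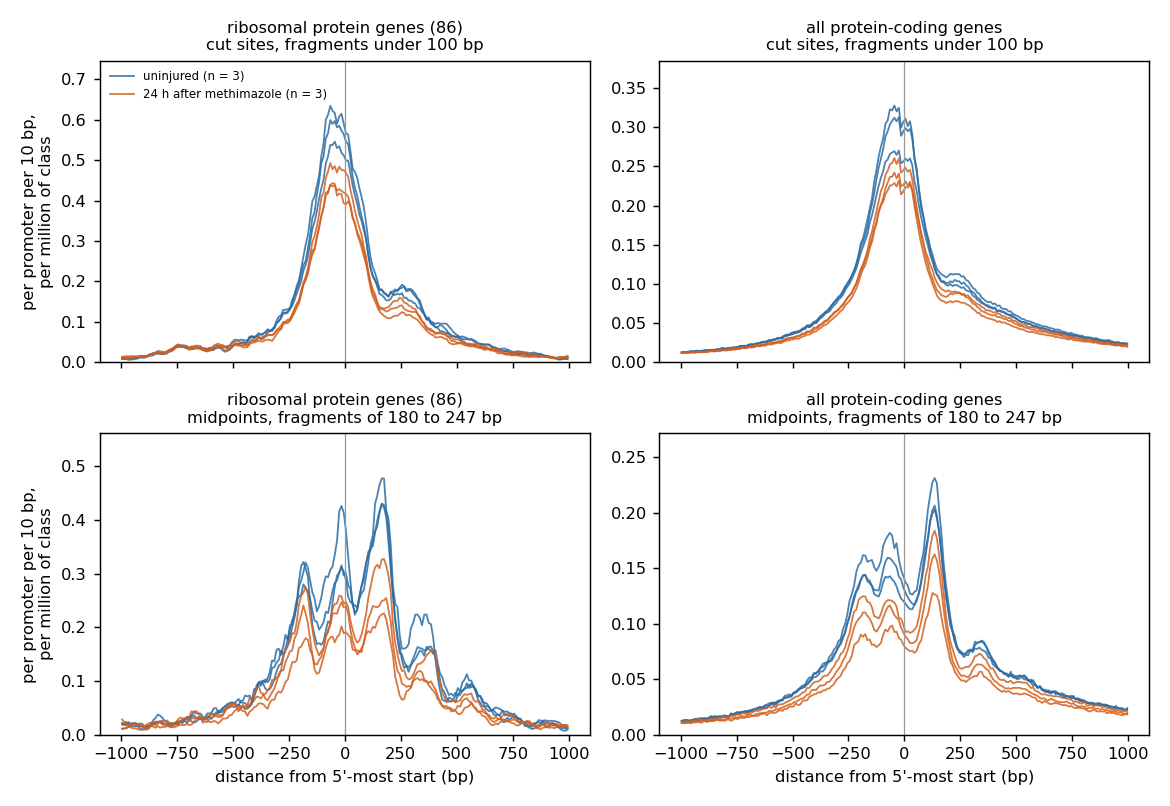
Cut sites of short fragments (top) and midpoints of mononucleosomal fragments (bottom) by distance from the 5′-most start in bp, per promoter and 10 bp and scaled to the cut sites or fragments of that length in the library, for the 86 genes (left, smoothed over 50 bp) and for all protein-coding genes (right; the scales differ). Each line is 1 library; the downstream nucleosome peak lies at 162 to 174 bp on the left and at 129 to 137 bp on the right.

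After injury a smaller share of all cut sites fell in ribosomal protein promoters, and promoters as a whole also held a smaller share. The 86 windows held 0.226, 0.209 and 0.214% of all cut sites in the uninjured and 0.167, 0.155 and 0.182% in the injured libraries, a mean of 0.217% ± 0.00882 against 0.168% ± 0.0132 (SD, n = 3 each). The groups did not overlap. All promoter windows together held 29.4, 27.7 and 28.7% against 22.3, 21.7 and 24.4%, again without overlap. As a share of promoter cut sites, the 86 windows held 0.770, 0.754 and 0.748% against 0.7497, 0.714 and 0.744%, and there the groups overlapped. In short fragments that share was 0.703, 0.696 and 0.676% against 0.670, 0.664 and 0.681%, with overlap. In mononucleosomal fragments it was 0.826, 0.798 and 0.787% against 0.753, 0.728 and 0.773%, without overlap. In cells thinned to 2000 fragments each, a mean of 4.21, 4.07 and 4.07 of the 86 windows was reached in the uninjured and 3.48, 3.21 and 3.39 in the injured libraries. The enrichment of cut sites at all starts was 10.3 to 11.2 in the uninjured and 8.61 to 10.4 in the injured libraries, and its part in these shares was not tested.

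**Figure D3:**
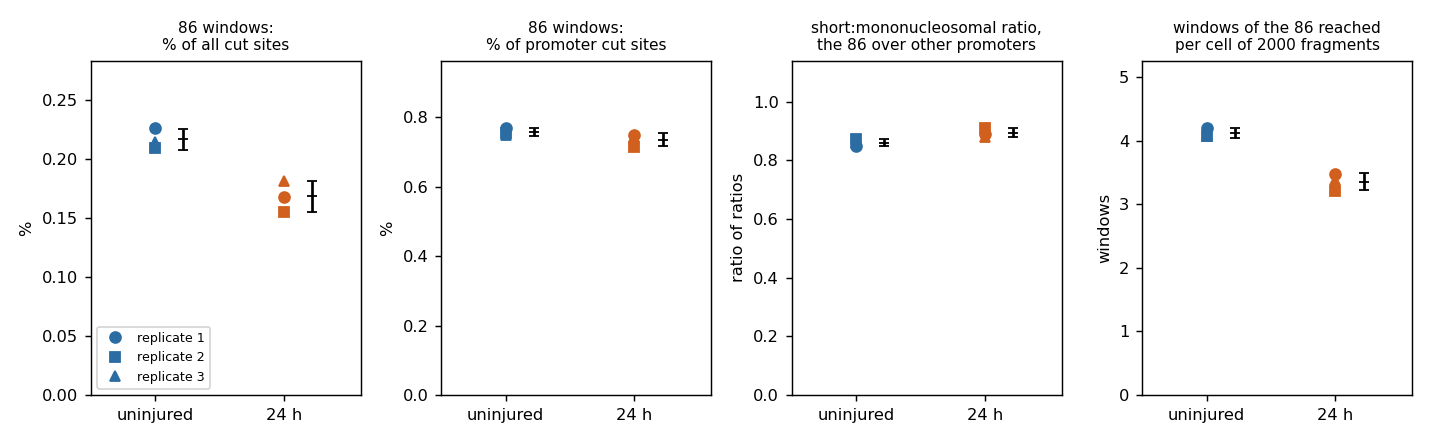
Per library, from left to right: the percent of all cut sites and the percent of promoter cut sites in the 86 windows, their short to mononucleosomal ratio divided by that of other promoters, and the mean number of the 86 windows reached in a cell of 2000 fragments, with the group mean ± SD (n = 3) beside each group. The groups overlap only in the percent of promoter cut sites, where the 86 windows hold 0.714 to 0.770% of promoter cut sites.

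To ask which of the genes changed after injury relative to other promoters, all promoters were tested together with edgeR's quasi-likelihood test with Benjamini-Hochberg adjustment and TMM scaling on promoters. No ribosomal protein promoter passed an adjusted p of 0.05: 0 of 82, where 3.92% of the 17163 promoters tested did (2.21% higher and 1.71% lower). At an unadjusted p under 0.05 there were 11 of 82, all lower, or 13.4% against 21.8% of all promoters, and DESeq2 also called 0, where it called 6.4% of all promoters. With replicate number as a block, edgeR called 3 of 82 lower (3.66%) and 0 higher. On that fit 5.94% of all promoters were lower and 4.53% higher. Values below are without the block unless it is named. The changes were small. The median log2 change was -0.08, against 0.00 over all promoters, and 81 of 82 genes (98.8%) were within 0.5 of 0, where 83.1% of all promoters were. The 83.1% takes in promoters of low level, and other promoters under 1 CPM had a median of 0.53. At 10 CPM or more the quartiles were -0.16 and 0.00 at 76 ribosomal protein genes and -0.17 and 0.06 at 10314 others. At the 82 genes the median standard error was 0.10, and the 95% interval stayed within 0.5 of 0 at 72 of them.

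The 3 genes with the smallest p were Rpl19, Rpl27a and Rps18, and all were at lower levels after injury in 3 of 3 libraries. Rpl19 stood at 18.2, 18.9 and 18.6 CPM in the uninjured and at 14.9, 15.1 and 15.1 CPM in the injured libraries. Its log2 change was -0.31 ± 0.10 (SE), with an edgeR adjusted p of 0.0970. Rpl27a stood at 33.9, 29.5 and 33.1 against 27.5, 26.8 and 26.1 CPM, a log2 change of -0.26 ± 0.08 and an edgeR adjusted p of 0.0973. Rps18 stood at 22.5, 28.5 and 23.5 against 19.9, 19.9 and 20.2 CPM, a log2 change of -0.32 ± 0.10 and an edgeR adjusted p of 0.0996, or -0.21 without uninjured replicate 2. In each the groups were apart, and each missed the threshold over all promoters. With the block Rpl27a passed it (edgeR adjusted p = 0.0414), and Rpl19 and Rps18 did not (0.0572 and 0.0503). Rps19, the most open of the set, had a log2 change of -0.24 ± 0.08, with an edgeR adjusted p of 0.116, or 0.0247 with the block.

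In 18 of 82 genes every injured library was below every uninjured one, where 14.3% of all promoters were. In 1 gene, Rps24, every injured library was above, where 13.0% of all promoters were. In either direction this is 23.2% of the 82 and 27.3% of all promoters. Rps24 stood at 6.54, 8.13 and 7.25 against 8.78, 9.11 and 8.83 CPM at its 5′-most start, yet at the start that holds most of its cut sites its log2 change was -0.22, with an edgeR adjusted p of 0.224. Rps2 had a mean of 1.13 CPM and a log2 change of 0.59 ± 0.45 (edgeR adjusted p = 0.479) at its 5′-most start, but at the start with most of its cut sites its log2 change was -0.32 (edgeR adjusted p = 0.0798), the lowest p of the set with windows placed that way. Rps14 had -0.05 (edgeR adjusted p = 0.770) at such a start, which lies 27583 bp downstream. The mean there was 29.5 CPM without TMM scaling, where the 5′-most window had 23.7 CPM with it. Outside the set the change followed the level. Other promoters under 1 CPM had a median log2 change of 0.53, those of 10 to 20 CPM of 0.00, those of 20 to 40 CPM of -0.09 and those of 40 CPM or more of -0.12. The ribosomal protein genes of 10 to 20 CPM had a median of -0.04 (31 genes), those of 20 to 40 CPM of -0.11 (38 genes) and those of 40 CPM or more of -0.03 (7 genes). Over all promoters of 10 CPM or more the median was -0.09 at the 76 ribosomal protein genes and -0.07 at the 10314 others. Of the 76, 23.7% were below the uninjured range in every injured library, and of the 10314 others 21.5%. Above that range were 0.0% of the 76 and 7.56% of the others. At an edgeR adjusted p under 0.05, 0 of the 76 were called, beside 2.64% of the others lower and 1.41% higher. These level classes were chosen after the values were seen.

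**Figure D4:**
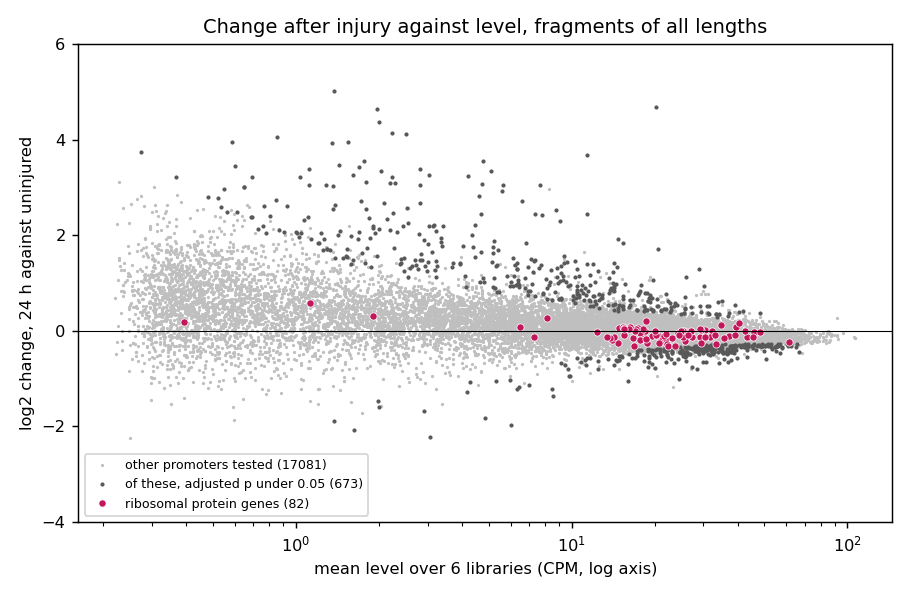
Log2 change after injury (24 h against uninjured) by mean level in CPM on a log axis, for the 82 ribosomal protein promoters and 17081 other promoters tested. Of the 82 ribosomal protein genes 76 lie in the dense band above 10 CPM, slightly below 0 (median -0.09), where other promoters of that level also lie (median -0.07), and none is among the 673 promoters past the threshold.

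These changes are relative to the median promoter, and scaling to all cut sites gives another picture. Scaled to the total cut sites of each library, the median promoter had a log2 change of -0.28 and the ribosomal protein genes of -0.36. On that scale 53 of 82 were lower at an edgeR adjusted p under 0.05, beside 38.5% of all promoters, and 0 were higher. Among promoters of 10 CPM or more it was 69.7% of the 76 and 60.4% of the others. The number of calls over all promoters also moved with single libraries, from 0.568% without injured replicate 2 to 7.75% without injured replicate 3, in place of 3.92%. Without injured replicate 3, Rps3 was called lower (log2 change -0.36, edgeR adjusted p = 0.0426), where 3.44% of all promoters were lower. Rpl3l was then called higher (2.54, edgeR adjusted p = 0.0493), where 4.31% of all promoters were. It did not pass the filter on low counts with all 6 libraries, and leaving out the injured library with 4 cut sites set 19 and 41 cut sites against 3, 9 and 6. Without uninjured replicate 3, Rpl10a was called lower (-0.43, edgeR adjusted p = 0.0160), where 1.7% of all promoters were. In both fits the share of ribosomal protein genes called, 2.38% and 1.19%, was below that of all promoters.

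Of the stalk proteins, which recruit elongation factors, Rplp1 stood at 21.3, 23.8 and 22.9 CPM in the uninjured and at 18.6, 19.1 and 19.1 CPM in the injured libraries, with a log2 change of -0.26 ± 0.09 and an edgeR adjusted p of 0.122. Its partner Rplp2 stood at 25.2, 21.9 and 20.7 against 22.2, 21.2 and 21.1 CPM (log2 change -0.06 ± 0.10), and Rplp0 at 30.0, 27.0 and 31.3 against 35.6, 26.9 and 26.6 CPM (0.02 ± 0.11). For the last pair the groups overlap. Rpl5 and Rpl11, which bind Mdm2 when ribosome assembly is disturbed, had log2 changes of -0.01 ± 0.11 and 0.06 ± 0.11. Rpl5 ranged from 16.4 to 20.1 CPM and Rpl11 from 16.1 to 19.5 CPM over the 6 libraries. Rps6, the small-subunit protein phosphorylated by the S6 kinases, stood at 33.6, 30.1 and 28.3 against 27.1, 28.1 and 28.3 CPM, with a log2 change of -0.13 ± 0.09. Rpsa, also known as the laminin receptor, had a log2 change of -0.08 ± 0.10. Among the open paralogs the log2 changes were 0.02 ± 0.08 at Rpl22l1, -0.01 ± 0.08 at Rpl36al, -0.01 ± 0.09 at Rps27l and 0.21 ± 0.12 at Rpl7l1. At Rps19bp1 it was -0.12 ± 0.13.

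Short and mononucleosomal cut sites were then tested apart, to see whether one kind moved alone. In short fragments 0 of 81 genes passed an edgeR adjusted p of 0.05, against 1.62% of 15079 promoters (1.31% higher, 0.305% lower), and 5 had an unadjusted p under 0.05 (6.17% against 13.9%). In mononucleosomal fragments 0 of 80 passed, against 1.01% of 14115 promoters (0.687% higher, 0.326% lower), and 5 had an unadjusted p under 0.05 (6.25% against 12.1%). DESeq2 called 0 in both, where it called 3.71% and 0.956% of all promoters. The groups were apart downward at 9 of 81 genes in short fragments (11.1% against 9.22% of all promoters) and upward at 5 (6.17% against 10.1%). In mononucleosomal fragments they were apart downward at 9 of 80 (11.2% against 9.0%) and upward at 1, where 8.76% of all promoters were. The median log2 change was -0.05 in short and -0.10 in mononucleosomal fragments. At 10 CPM or more it was -0.08 at 73 ribosomal protein genes and -0.04 at other promoters in short fragments, and -0.11 at 76 and -0.05 at others in mononucleosomal fragments.

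In short fragments the smallest p belonged to Rps19, which stood at 80.2, 73.1 and 69.1 CPM in the uninjured and 61.6, 56.5 and 64.6 CPM in the injured libraries. Its log2 change was -0.27 ± 0.09, with an edgeR adjusted p of 0.156. Rpl27a stood at 38.5, 32.6 and 36.6 against 28.9, 30.2 and 24.9 CPM, with -0.36 ± 0.12 and an edgeR adjusted p of 0.170. Rpl18, a large-subunit gene, went the other way, at 42.7, 40.5 and 44.3 against 50.7, 53.7 and 48.6 CPM (log2 change 0.26 ± 0.10, edgeR adjusted p = 0.218), though its value was 0.16 in 500 bp windows and -0.0054 scaled to total cut sites. In mononucleosomal fragments Rps18 stood at 26.4, 27.1 and 22.1 against 17.2, 16.4 and 17.7 CPM, a log2 change of -0.54 ± 0.17 with an edgeR adjusted p of 0.112. Rpl32, of the large subunit, stood at 19.98, 20.1 and 18.4 against 12.2, 11.9 and 14.2 CPM, a log2 change of -0.60 ± 0.20 with an edgeR adjusted p of 0.140, and -0.26 with wider length classes. In both the groups were apart, and neither passed the threshold. Rpl27a came next, with -0.37 ± 0.16 and an edgeR adjusted p of 0.307, and with -0.19 without uninjured replicate 3.

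The difference between the length classes was tested as an interaction within libraries. It was past the threshold at 0 of 80 genes and at 0.0% of 14085 promoters (DESeq2 also called 0), with an unadjusted p under 0.05 at 6 of the 80 genes and at 5.01% of all promoters. The median was 0.01 at the 80 genes and 0.01 over all promoters. The smallest p belonged to Rpl32, where the log2 difference of short over mononucleosomal change was 0.60 ± 0.25 on the log2 scale (95% interval 0.11 to 1.10), with an edgeR adjusted p of 0.970. Rpl13, also of the large subunit, was among the 3 genes with the smallest p (0.51 ± 0.23, interval 0.05 to 0.97), at the same adjusted p of 0.970 from edgeR. By library, the ratio at Rpl32 was 1.68, 1.2 and 1.84 in the uninjured and 1.70, 2.81 and 1.94 in the injured mice, so that the groups overlap. Injured replicate 2 was the highest library there. The log2 difference at Rpl32 was 0.34 without uninjured replicate 2 and 0.26 with wider length classes, and at Rpl13 it was 0.31 with wider length classes.

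**Figure D5:**
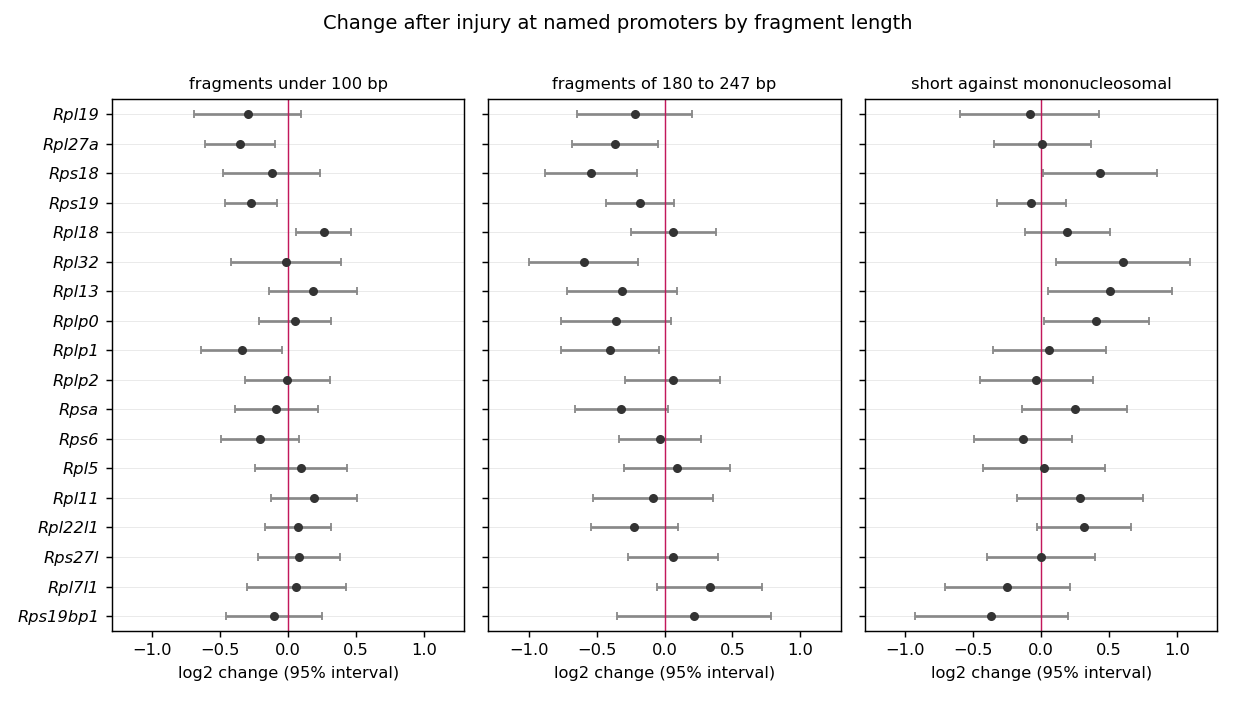
Log2 change after injury with its 95% interval (edgeR, 3 against 3 libraries) at 18 named promoters, in short fragments, in mononucleosomal fragments and for the difference between them. Intervals in the left panel lie below 0 at Rpl27a, Rps19 and Rplp1 and above 0 at Rpl18, and none of these genes passes the threshold adjusted over all promoters.

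Other gene lists of the translation machinery gave like counts, to be read beside 1.71% of all promoters lower and 2.21% higher. Of 78 mitochondrial ribosomal protein genes, which encode the separate ribosome of mitochondria, 1 was lower and 0 higher. This was Mrps6, at 24.7, 25.3 and 23.5 CPM in the uninjured and 17.5, 20.1 and 19.0 CPM in the injured libraries (log2 change -0.38 ± 0.09, edgeR adjusted p = 0.0402). Their median log2 change was 0.00, at a median level of 16.3 CPM. Of 37 translation factor genes 1 was lower, Tpt1, a gene whose mRNA also carries the pyrimidine motif, at 62.6, 59.1 and 62.7 against 50.3, 51.7 and 50.9 CPM (-0.27 ± 0.07, edgeR adjusted p = 0.0403). The median of that list was -0.09, at a median level of 23.8 CPM. Of 61 ribosome biogenesis genes tested 1 was higher, the assembly factor Efl1, at 14.6, 19.2 and 16.4 against 22.4, 23.4 and 22.3 CPM (0.43 ± 0.11, edgeR adjusted p = 0.0432).

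Of 22 genes of the growth signalling that acts on ribosomes 1 was lower, Rheb, the activator of mTOR, at 61.2, 59.3 and 56.1 against 49.7, 47.6 and 44.6 CPM (-0.31 ± 0.07, edgeR adjusted p = 0.0318). Of 20 genes of factors that bind such promoters 1 was lower, Yy1 itself, at 32.7, 35.5 and 38.9 against 25.2, 29.1 and 30.0 CPM (-0.35 ± 0.09, edgeR adjusted p = 0.0493). None of 11 ribosome-associated genes passed, and the lowest p there belonged to Btf3, a chaperone of new chains (-0.28 ± 0.10, edgeR adjusted p = 0.121). Beside these counts, 3.92% of all promoters passed in either direction. The median log2 change was -0.01 in the biogenesis, -0.14 in the growth signalling, -0.11 in the promoter factor and -0.08 in the ribosome-associated list. Their median levels were 20.3, 29.1, 31.9 and 24.3 CPM in that order. DESeq2 also called each of these 5 genes, Mrps6, Tpt1, Efl1, Rheb and Yy1, and edgeR called all 5 with barcodes of at least 5000 fragments. Calls of the alternatives at other genes of the lists are not reported here. None of the 5 passed in edgeR without replicate 1 or without replicate 2 of either group, 2 passed without uninjured replicate 3 and 4 without injured replicate 3. With shared barcodes left out 2 passed, Rheb and Efl1 (edgeR adjusted p = 0.0397 and 0.0404), in 500 bp windows 1 did, and with windows at the most accessible annotated start 4 did, all but Yy1 (edgeR adjusted p = 0.0516). Efl1 did not pass on other scales, with a log2 change of 0.15 with total cut sites, 0.14 with bins of at least 300 cut sites and -0.11 with TMM on 10 kb bins (edgeR adjusted p = 0.345, 0.313 and 0.630).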

How the data were processed

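Single-cell ATAC-seq libraries of 3 uninjured and 3 injured samples were analysed from the deposited fragment files, whose whole-number column counts the read pairs behind each fragment. Per the submitters' processing notes, Cell Ranger 2.0.0 and the mm10 build were used, and the header of the deposited matrices names software version 1.2.0. The aligner, any shift of cut positions and the handling of reads that map to several places, as in processed pseudogenes, are not stated in the labels, headers or notes. Both fragment ends were counted as cut sites. Barcodes with at least 2000 fragments were kept, with no doublet removal, and summed per library. The window was 1000 bp either side of the 5′-most GENCODE M21 start of each protein-coding gene. Counts were tested with edgeR 4.0.16 in R 4.3.3 (quasi-likelihood, robust, filterByExpr, TMM factors from promoters, total cut sites as library size), with Benjamini-Hochberg adjustment over all promoters and a threshold of 0.05. The difference between length classes was an interaction in 1 model with library as a term. Standard errors are the log2 change over the root of F. CPM at 5′-most starts are scaled by TMM, and those of markers and of the most accessible starts to total cut sites alone. On simulated counts for 16805 promoters, fragments of all lengths, the test called 77.3% of 194 promoters changed by 1 on the log2 scale and 94.8% of 192 changed by 2; smaller changes were not simulated. The labels give both groups replicate numbers 1 to 3. Alternatives covered scaling, DESeq2 1.42.0, filters, windows, cell minimum, length classes, a replicate block and each library left out. Named were members called in any test or else the 3 with the smallest p in each, the 3 highest and lowest in level and in length ratio, a fixed set by role, and at most 3 genes of each other list; some genes this rule names are not reported here. Rpl3, Rpl10a, Rpl17, Rps2, Rps3, Rps4x, Rps10, Rps14, Rps24 and Rpl36al were named after their values were seen. Members and lists were chosen with earlier results of these data known. P-values measure the spread between libraries.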

Additional observations from a re-analysis of the deposited data

How the results depend on the processing

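Relative to other promoters, 0 members were called with fragments of all lengths, and the count stayed at 0 with DESeq2, without the filter on low counts, with 500 bp windows, cells of 5000 fragments, fragments counted by midpoint, shared barcodes left out, or windows at the most accessible annotated start. Leaving out 1 library gave 0 to 1 called lower and 0 to 1 called higher, the 1 in each case without uninjured or injured replicate 3, where 1.7% and 3.44% of all promoters were lower and 2.26% and 4.31% higher. In the length classes, singly and against each other, the count stayed at 0 in every alternative run other than scaling. Scaling decided the rest. With total cut sites, 53 members were called lower with all lengths, 22 in short and 29 in mononucleosomal fragments. With TMM on 10 kb bins it was 76, 33 and 48, and with bins of at least 300 cut sites, an alternative added after the data were seen, 57, 6 and 2. All promoters moved with them. In that order of scales, 38.5%, 57.3% and 42.1% of them were called lower with all lengths, 3010 of 15079 promoters, 30.5% and 9.58% in short and 22.5%, 36.1% and 3.44% in mononucleosomal fragments (members at the last scale 7.41% and 2.5%), and their median log2 change was -0.28, -0.54 and -0.29. These medians are for all lengths, and the members' median stayed 0.08 to 0.09 below them on each scale. Among promoters of 10 CPM or more the medians were closer. In the same order of scales they were -0.37, -0.63 and -0.38 at the 76 members and -0.35, -0.61 and -0.36 at the 10314 others. Rpl18 in short fragments reversed, to -0.0054 with total cut sites and -0.066 with 10 kb bins, and Efl1 to -0.11 with 10 kb bins. The share of the 86 windows differed by -0.0219 percentage points when taken of promoter cut sites and by -0.0486 points of all cut sites. The injured mean was 0.971 times the uninjured mean in the first and 0.776 times in the second. The difference in windows reached per cell moved by less than the SD of either group in every alternative run. Those in length ratio and nucleosome distance moved by less than the SD of the injured group but not always that of the uninjured group, and changed sign: the ratio from -0.165 to 0.045 without injured replicate 1, the distance from 1.67 bp to -1.33 bp with cells of 5000 fragments and to -0.50 bp without injured replicate 1 (5.5 bp without injured replicate 2).

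With a replicate block 3 members were called lower, Rps19 (-0.25, edgeR adjusted p = 0.0247), Rpl27a (-0.26, 0.0414) and Rps14 (-0.31, 0.0339), and 5.94% of all promoters were lower. The Rps14 call is at its 5′-most start. At its most accessible start, 27583 bp downstream, its log2 change was -0.05 without the block. Same-numbered libraries share an age in the labels, which name no shared litter, batch or day, and the numbers were not taken to pair the samples. Deviations of same-numbered libraries correlated at 0.043, 0.169 and 0.200 over promoters, and those of different numbers at -0.221 to 0.087. Each uninjured library correlated best with the injured library of its number, while injured replicate 1 correlated best with uninjured replicate 2. The replicate 3 libraries share 34 barcode sequences, other pairs 0 to 4. Whether the libraries are paired was not tested. At this depth and spread between libraries the standard error of a log2 change ranged from 0.069 to 0.66.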
